A study of Monodelphis domestica with 6 samples.

Results

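The insulin-like growth factor (IGF) axis was examined in opossum (Monodelphis domestica) neonatal skin fibroblasts (neoSFs) and in the induced pluripotent stem cells reprogrammed from them (monoiPSCs). Its members were 10 genes chosen by name, which are the ligands IGF1 and IGF2, the receptors IGF1R, IGF2R and INSR, and the binding proteins IGFBP2, IGFBP3, IGFBP4, IGFBP5 and IGFBP7. Of these, 9 had a row among the 35665 genes of the deposited tables. IGF2 had none and was not analysed here, so IGF1 is the only ligand described.

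There were 6 libraries from cells of wild type genotype. The 2 neoSF libraries came from untreated primary skin cultures of 10-day-old female pups, 1 of strain FD2M1 and 1 of strain LSD1. The 4 monoiPSC libraries came from 1 line per strain at passage 15 and again at passage 25. Both lines were made by nucleofection with episomal plasmids carrying human OCT4, SOX2, NANOG, KLF4, LIN28 and cMYC, together with mp53DD and EBNA1. The paper counts 2 monoiPSC lines but also 4 clones, so a difference between passages may also be one between clones. The passages of a line are taken as repeats of the same line, so p-values measure only the spread between these libraries. neoSFs were grown with fetal bovine serum and an insulin, transferrin and selenite supplement, and monoiPSCs in a serum-free medium with N-2, B-27 plus, LIF and bFGF. The study's methods do not list the contents of N-2 and B-27 plus, so insulin cannot be compared between these media. Because the neoSF libraries were read in-house as short single-end reads and the monoiPSC libraries by a sequencing service as longer paired-end reads, cell type, medium and platform cannot be told apart.

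IGF1 and IGF2 are secreted growth factors that signal through the tyrosine kinase receptors IGF1R and INSR to the PI3K and AKT kinases. IGF2R has no kinase domain. It is also the cation-independent mannose 6-phosphate receptor, and it carries IGF2 and lysosomal enzymes to lysosomes. The binding proteins hold IGFs outside the cell with high affinity, except IGFBP7, whose affinity for IGFs is low, and proteases release the ligand by cutting them. The axis is known for controlling fetal growth, for a role in fibroblast proliferation and matrix production, and for supporting the survival of pluripotent cells in culture.

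The summed counts per library were 14278794 to 35564261, lower in both neoSF libraries than in the monoiPSCs. All 9 genes reached a normalized read count (NRC, the authors' count after DESeq normalization) of at least 20 in each of the 6 libraries. The labelled cell types were checked on their defining markers. The summed NRC of 8 fibroblast markers was 1607400 and 1762300 in neoSFs and 11252 to 14064 in monoiPSCs, where all 8 were still at an NRC of at least 20. Of 5 pluripotency markers, 4 were at 3 counts or fewer in both neoSF libraries and all 5 were at an NRC of at least 20 in each monoiPSC library. Markers of other cell types had values in both groups. The summed NRC of 8 skeletal muscle markers was 20719 and 24107 in neoSFs, mostly ACTC1, and 2826 to 22762 in monoiPSCs. For 5 melanocyte markers it was 257 and 407 in neoSFs and 4604 to 15571 in monoiPSCs, there nearly all DCT. In monoiPSCs it was at most 6.73 for 3 keratinocyte markers and at most 56.9 for 5 blood and endothelial markers. In these bulk libraries, fewer cells of a type and less RNA per cell cannot be told apart.

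From neoSFs to monoiPSCs, IGFBP7 and IGFBP4 fell 25.6-fold and 9.96-fold and IGFBP3 rose 2.47-fold. The IGFBP3 call was lost in 6 of 11 alternative fits. IGF1, the 3 receptors, IGFBP2 and IGFBP5 were not called. A gene was called differentially expressed (DE) when it reached a 2-fold change in either direction with an adjusted p of 0.05 or lower. Thus 3 of the 9 genes were DE, 1 higher and 2 lower, where 45.9% of the 13072 genes tested were DE, 24.3% higher and 21.6% lower. With 9 genes nothing is read from this share, which was 5 of 9 without the FD2M1 neoSFs, where IGF2R and IGFBP5 were also DE. On the adjusted p alone 5 of the 9 passed, beside 62.2% of all genes. The median log2 fold change of the 9 genes was -0.74, against 0.08 over all genes tested. A log2 fold change below is monoiPSC over neoSF on TMM-scaled counts with its standard error (SE), and its adjusted p comes from the quasi-likelihood test of edgeR, adjusted by Benjamini-Hochberg over all genes tested.

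**Figure D1:**
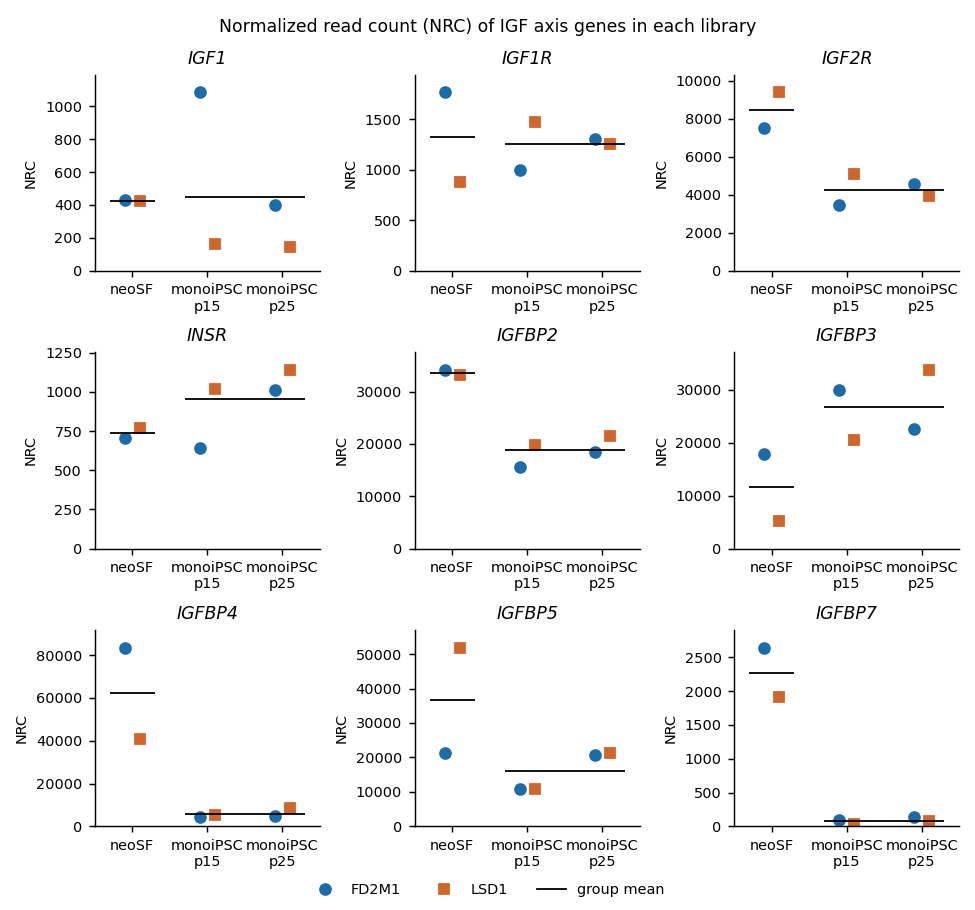
NRC of the 9 IGF axis genes in each of the 6 libraries, with 1 panel per gene and a linear y axis from 0. Circles are FD2M1, squares are LSD1 and lines are group means. IGFBP4 and IGFBP7 are far lower in all 4 monoiPSC libraries, the IGF1 values of the monoiPSCs spread from 145 to 1083, and the neoSF strains stand apart for IGFBP3, IGFBP4, IGFBP5 and IGF1R.

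IGF1 (gene 100021295, chromosome 8 of MonDom5) is the ligand with the highest affinity for IGF1R. The neoSFs held an NRC of 431 (FD2M1) and 422 (LSD1), against 1083 and 402 in the FD2M1 line at passages 15 and 25, and 165 and 145 in the LSD1 line. The neoSF libraries were thus nearly equal and lay inside the range of the monoiPSCs, with the FD2M1 line at passage 15 highest and the LSD1 line lowest. Group means were 426 ± 6.70 (SD, n = 2) for neoSFs and 449 ± 439 (SD, n = 4) for monoiPSCs. This gave a log2 fold change of 0.17 (SE 0.79, adjusted p = 0.860), and its 95% interval of -1.68 to 2.03 leaves room for a large change either way. The sign rested on 1 library, because without the FD2M1 line at passage 15 the log2 fold change was -0.75 (adjusted p = 0.209).

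IGF1R (gene 100020095, chromosome 1) is the main signalling receptor of both ligands. FD2M1 neoSFs had an NRC of 1763 and LSD1 neoSFs 881, with 997 and 1302 in the FD2M1 line at passages 15 and 25, and 1466 and 1258 in the LSD1 line. All 4 monoiPSC libraries lay between the neoSF libraries. The group means were 1322 ± 624 (SD, n = 2) for neoSFs and 1256 ± 195 (SD, n = 4) for monoiPSCs. The log2 fold change was 0.02 (SE 0.28, adjusted p = 0.945) with a 95% interval of -0.64 to 0.69. The sign of this small value differed between scalings of the libraries.

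INSR (gene 100027215, chromosome 3), the insulin receptor, also binds IGF2 in 1 of its isoforms, and isoforms are summed in these gene counts. In FD2M1 and LSD1 neoSFs the NRC was 705 and 772, with 643 and 1012 in the FD2M1 line at passages 15 and 25, and 1019 and 1139 in the LSD1 line. The FD2M1 line at passage 15 lay below both neoSF libraries and the other 3 monoiPSC libraries above them. INSR had a log2 fold change of 0.46 (SE 0.24, adjusted p = 0.131) with a 95% interval of -0.10 to 1.03.

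IGF2R (gene 100027969, chromosome 2) was lower in all 4 monoiPSC libraries than in either neoSF library. It stood at an NRC of 7491 (FD2M1) and 9389 (LSD1) in neoSFs, 3490.3 and 4549 in the FD2M1 line at passages 15 and 25, and 5091 and 3944 in the LSD1 line. The mean of 8440 ± 1342 (SD, n = 2) in neoSFs stood against 4269 ± 699 (SD, n = 4) in monoiPSCs. The log2 fold change of -0.89 (SE 0.19, adjusted p = 0.00545) passed on its p but not on its size, as did that of IGFBP2 described next. Without the FD2M1 neoSFs it was -1.05 (adjusted p = 0.00939) and DE.

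IGFBP2 (gene 100012032, chromosome 7) is a binding protein that is abundant in fetal tissues. NRC values were 34090 (FD2M1) and 33079 (LSD1) in neoSFs, 15508 and 18528 in the FD2M1 line at passages 15 and 25, and 19785 and 21539 in the LSD1 line. Relative to its mean it varied least of the 5 binding proteins within either group, and the groups did not overlap. Its log2 fold change was -0.74 (SE 0.18, adjusted p = 0.00823). Among the 9 genes the NRC ranges of the groups did not overlap in 5, namely IGF2R, IGFBP2, IGFBP4 and IGFBP7 on the lower side and IGFBP3 on the higher side, and over all genes tested this was the case for 73.2%, 37.1% lower and 36.1% higher.

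IGFBP3 (gene 100618843, chromosome 6) is the main carrier of IGFs in blood and also acts on cells without binding an IGF. Among neoSFs the NRC was 17861 for FD2M1 but 5255 for LSD1, and it was 29991 and 22502 in the FD2M1 line at passages 15 and 25, and 20537 and 33658 in the LSD1 line. It was the only one of the 9 genes for which each monoiPSC library lay above both neoSF libraries. The mean rose from 11558 ± 8914 (SD, n = 2) to 26672 ± 6187 (SD, n = 4), a log2 fold change of 1.31 (SE 0.48, adjusted p = 0.0460). The call was close to the threshold and was lost in 6 of 11 alternatives, among them RLE scaling (adjusted p = 0.0549). The size of the change depended on the neoSF library. Without the LSD1 neoSFs the log2 fold change was 0.68 (adjusted p = 0.128), without the FD2M1 neoSFs it was 2.43 (adjusted p = 0.00228), and without any 1 of the 4 monoiPSC libraries it was 1.16 to 1.41 with an adjusted p of 0.0605 to 0.0898. The adjusted p ranged from 0.00228 to 0.128 over all alternatives.

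IGFBP4 (gene 100015228, chromosome 2) inhibits IGF action in most settings and is the main substrate of the protease PAPPA. FD2M1 and LSD1 neoSFs reached an NRC of 83360.5 and 40954, against 4615 and 4807 in the FD2M1 line at passages 15 and 25, and 5397 and 8503 in the LSD1 line. The highest monoiPSC library thus lay well below the lower neoSF library. IGFBP4 fell by 3.32 on the log2 scale (SE 0.35, adjusted p = 0.000197), and it was DE under each of the 11 alternatives. Its fold moved with the neoSF library, at 6.61-fold lower without the FD2M1 neoSFs and 13.3-fold lower without the LSD1 neoSFs.

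IGFBP5 (gene 100011988, chromosome 7) binds IGFs and extracellular matrix. The NRC of neoSFs was 21324 for FD2M1 and 51783 for LSD1, that of monoiPSCs 10839 and 20598 in the FD2M1 line at passages 15 and 25, and 10991 and 21362 in the LSD1 line. The LSD1 neoSFs were highest, and the FD2M1 neoSFs were as low as the monoiPSCs of passage 25. The log2 fold change of -1.11 (SE 0.42, adjusted p = 0.0531) just missed the p threshold. It was DE in 5 of 11 alternatives, and its value depended on the neoSF library used, at -1.61 (adjusted p = 0.0144) without the FD2M1 neoSFs and -0.32 (adjusted p = 0.562) without the LSD1 neoSFs. IGFBP5 and IGFBP2 are neighbours in the gene order of the mMonDom1.pri assembly, with 0 protein-coding genes between them, and neither showed a 2-fold change that passed the test.

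IGFBP7 (gene 100015859, chromosome 5), a secreted protein of vessels and fibroblasts, showed the largest change. With an NRC of 2640.5 (FD2M1) and 1910.4 (LSD1) in neoSFs, it was at 91.0 and 132 in the FD2M1 line at passages 15 and 25, and 37.2 and 73.2 in the LSD1 line. The mean went from 2275 ± 516 (SD, n = 2) to 83.3 ± 39.3 (SD, n = 4). IGFBP7 fell by 4.68 on the log2 scale (SE 0.43, adjusted p = 0.000114) and was DE under each of the 11 alternatives. The fibroblast markers above were lower together with IGFBP4 and IGFBP7, and their part in these changes was not tested.

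**Figure D2:**
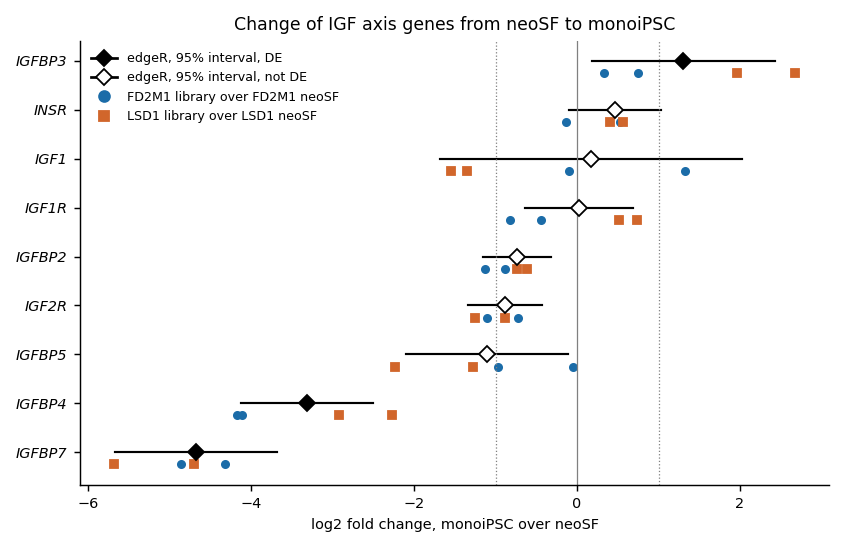
Log2 fold change of each IGF axis gene, monoiPSC over neoSF, on the x axis. Diamonds with bars are the edgeR estimate with its 95% interval on TMM-scaled counts, filled where DE, and small symbols set each monoiPSC library against the neoSF library of its own strain on the deposited log2 scale. Dotted lines mark a 2-fold change. The bars of IGFBP4 and IGFBP7 lie entirely beyond it, and the LSD1 and FD2M1 symbols of IGF1R lie on opposite sides of 0.

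The make-up of the binding protein reads was compared across libraries as the share of each gene in the summed counts of the 5 binding proteins. It does not depend on the scaling of the libraries. A share is not a molar share, since longer transcripts give more reads, so each gene is compared only with itself. The 5 genes together took 0.572% and 0.494% of all counts in neoSFs (FD2M1 and LSD1) and 0.329% to 0.465% in monoiPSCs, with no overlap between the groups. IGFBP4 made up 52.3% and 30.8% of these counts in neoSFs and 7.22% to 9.99% in monoiPSCs. IGFBP3 went the other way, from 11.2% and 3.95% to between 33.8% and 49.1%. IGFBP2 held 21.4% and 24.9% in neoSFs and 25.3% to 34.9% in monoiPSCs, and IGFBP5 13.4% and 38.9% against 17.8% to 30.9%. IGFBP7 held 1.66% and 1.44% against 0.0655% to 0.198%. The shares of IGFBP4, IGFBP3, IGFBP2 and IGFBP7 were therefore apart between the groups, narrowly for IGFBP2, and that of IGFBP5 was not. In NRC the groups did not overlap for 73.2% of all genes tested. A fall in 1 share raises the others, and the IGFBP2 share was higher in monoiPSCs although its NRC was lower there.

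**Figure D3:**
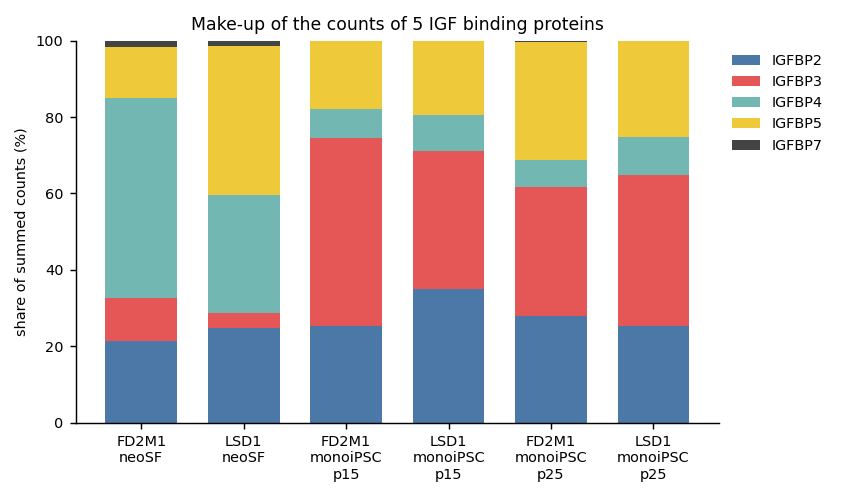
Share of each binding protein in the summed counts of the 5 (y axis, percent), with 1 bar per library. The IGFBP4 segment shrinks from 52.3% and 30.8% in the neoSF bars to under 10.0% in the monoiPSC bars, and the IGFBP3 segment takes 33.8% or more there.

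Ratios between members within a library were compared for 3 pairs with an exact two-sided permutation test, which for 4 libraries against 2 cannot give a p below 0.133, because the smaller tail is doubled. For IGFBP2 over IGFBP3 the ratio of counts was 1.91 and 6.30 in the neoSFs of FD2M1 and LSD1 and 0.517 to 0.963 in monoiPSCs. This is a difference of -2.28 on the log2 scale (exact p = 0.133, the smallest possible, and adjusted p = 0.400 over the 3 ratios). It was lower in 4 of 4 monoiPSC libraries, and was -3.14 without the FD2M1 neoSFs and -1.41 without the LSD1 neoSFs. For IGF1R over INSR the ratio of counts was 2.50 and 1.14 in neoSFs and 1.11 to 1.55 in monoiPSCs, a log2 difference of -0.34 (exact p = 0.533). For IGFBP5 over IGFBP2 it was 0.626 and 1.57 in neoSFs and 0.556 to 1.11 in monoiPSCs, a log2 difference of -0.29 (exact p = 0.667). Each of these last ratios overlapped between the groups, and the sign of both differences turned with the neoSF library left out.

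The neoSF cultures of the strains differed in several of these genes. Relative to the FD2M1 neoSFs, the LSD1 neoSFs had 3.40-fold less IGFBP3, 2.04-fold less IGFBP4, 2.00-fold less IGF1R and 2.43-fold more IGFBP5, each from 1 library per strain with no replicate. Muscle markers also differed, with MYOG at an NRC of 206 in FD2M1 and 22.2 in LSD1 neoSFs, and ACTC1 at 16344 and 21468. Strain and the make-up of the culture cannot be told apart here. IGFBP4 was 18.1-fold and 17.3-fold lower in the FD2M1 libraries of passages 15 and 25 and 7.59-fold and 4.82-fold lower in the LSD1 libraries, each against its own neoSFs on the NRC scale. IGFBP3 was 1.68-fold and 1.26-fold higher in the FD2M1 line and 3.91-fold and 6.41-fold higher in the LSD1 line. IGF1R was lower than in its own neoSFs in both FD2M1 libraries, with log2 differences of -0.82 and -0.44, and higher in both LSD1 libraries, with 0.74 and 0.51.

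The test of this difference between strains, the interaction of cell type and strain with passages as the replicates, called 0 of the 9 genes in edgeR. Over all genes tested, 0.0841% were called and 9.13% had an unadjusted p under 0.05, and 4 of the 9 genes had such a p. The log2 interaction, LSD1 change minus FD2M1 change, was 1.23 for IGF1R (SE 0.35, adjusted p = 0.359), 1.57 for IGFBP4 (SE 0.45, adjusted p = 0.361), 1.79 for IGFBP3 (SE 0.52, adjusted p = 0.373) and -2.25 for IGF1 (SE 0.83, adjusted p = 0.494). That of IGF1 was -1.35 without the FD2M1 library of passage 15 and -2.80 without that of passage 25. DESeq2 called IGFBP3 (adjusted p = 0.0307) and IGFBP4 (adjusted p = 0.0423) on the same counts, where it called 2.33% of all genes tested.

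Within the monoiPSCs, passage 25 was compared with passage 15 with strain as a covariate. IGFBP5 was 1.90-fold and 1.94-fold higher at passage 25 in the FD2M1 and LSD1 lines. These nearly equal steps gave a log2 fold change of 0.93 (SE 0.13, unadjusted p = 0.000341, adjusted p = 0.155 from edgeR), and 26 of the 12252 genes tested had a lower unadjusted p. edgeR called 0 genes for passage, while 9.35% had an unadjusted p under 0.05, among them IGFBP5 and IGF1. DESeq2 gave IGFBP5 the same log2 fold change with an adjusted p of 0.000355, which 1.18% of the genes passed at 0.05, and the change was under 2-fold by both. The endoderm factor FOXA2 moved in the same direction, with an NRC of 1118 and 1511 in the FD2M1 and LSD1 lines at passage 15 and 3719 and 3820.0 at passage 25. The endoderm genes GATA4 at 0 counts and SOX17 at an NRC of at most 2.51 stayed at or near the floor in all 4 libraries. So did TTR, at most 2.06. GATA6 was low but higher at passage 25, at an NRC of 2.53 and 28.3 in FD2M1 and 4.21 and 17.0 in LSD1. AFP was at most 11.0, and the lines moved in opposite directions. The summed NRC of the 6 endoderm markers, 1127 and 1526 at passage 15 and 3757 and 3845 at passage 25, was nearly all FOXA2. The neural markers DCX, SOX1 and PAX6 were lower at passage 25 in both lines. DCX went from 2463 and 2197 to 1175 and 1170. TUBB3 and NEUROG2 fell in the FD2M1 line and rose in the LSD1 line. The part of all these markers in the IGFBP5 values was not tested.

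Of the other members, IGFBP7, INSR, IGFBP2 and IGFBP4 were also higher at passage 25 in both lines and IGF1 was lower in both, with less equal steps. IGF1 was 1083 and 402 at passages 15 and 25 in the FD2M1 line and 165 and 145 in the LSD1 line, a log2 fold change of -0.84 (SE 0.32, adjusted p = 0.510). IGFBP7 was 1.45-fold and 1.97-fold higher at passage 25 in the FD2M1 and LSD1 lines (log2 fold change 0.73, SE 0.35, adjusted p = 0.576). On the log2 scale of the NRC the steps were 0.65 and 0.16 for INSR (adjusted p = 0.582), 0.26 and 0.12 for IGFBP2 (adjusted p = 0.688) and 0.06 and 0.66 for IGFBP4 (adjusted p = 0.594). For IGF1R, IGF2R and IGFBP3 the lines moved in opposite directions between passages.

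Between the lines, IGF1 differed most. It was 6.58-fold lower in the LSD1 line than in the FD2M1 line at passage 15 and 2.78-fold lower at passage 25, although the neoSFs of the strains differed only 1.02-fold. With passage as a covariate, the log2 fold change of LSD1 over FD2M1 was -2.10 (SE 0.33, 95% interval -2.90 to -1.30). edgeR gave an adjusted p of 0.136 and called 0 genes at all between the lines, where 14.2% of the 12252 genes had an unadjusted p under 0.05, among them IGF1, IGFBP4 and IGFBP7. DESeq2 called IGF1 (adjusted p = 2.48e-06), 1 of the 0.588% of genes it called lower in LSD1. Without the FD2M1 library of passage 15 and without the covariate the log2 fold change was -1.37 (adjusted p = 0.840), and without the FD2M1 library of passage 25 it was -2.80 (adjusted p = 0.0268), with passage unbalanced between the lines in both fits.

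Other cell type markers also differed between these lines. The summed NRC of the skeletal muscle markers was 4748 and 2826 in the FD2M1 line at passages 15 and 25 and 7855 and 22762 in the LSD1 line. That of the melanocyte markers was 5962 and 4604 against 15571 and 8101. Both sums were higher in the line with less IGF1. DCT alone carried the melanocyte sum, at 5608 and 4372 against 15279 and 7858. MITF was 338 and 222 against 255 and 236. Among the muscle genes MYOG was 1527 and 985 against 4135 and 5549, and DES 563 and 315 against 769 and 4213. ACTC1 was 1391 and 630 against 1131 and 6418. At passage 25 every muscle marker but MYF5, which was near the floor, was higher in the LSD1 line. The neural list, at 6029, and the fibroblast list, at 14064, were highest in the FD2M1 library of passage 15, which also had the most IGF1. The fibroblast sums spanned only 11252 to 14064. VIM, their largest part, was lower in the FD2M1 line, at 6514 and 6266 against 8738 and 8810. COL3A1, DCN, LUM and PDGFRA were higher in the FD2M1 line at both passages, as was COL1A1, barely so at passage 25. PDGFRA was 1068 and 325 against 324 and 91.0, and COL3A1 2137 and 2008 against 639 and 518.5. Not all genes of these lists followed. THY1 was higher in the FD2M1 line only at passage 15. PDGFRB was lowest in the FD2M1 library of passage 15, at 159 against 243 to 410 in the other monoiPSC libraries. TUBB3 was 3171 in that library and 3414 in the LSD1 library of passage 25. The part of all these markers in the IGF1 values was not tested. IGFBP7 was lower in the LSD1 line (log2 fold change -1.06, SE 0.35, adjusted p = 0.282) and IGFBP4 higher (0.53, SE 0.18, adjusted p = 0.288), while IGFBP5 and IGFBP3 differed by 0.04 and 0.02 with 95% intervals of -0.27 to 0.35 and -0.60 to 0.64.

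**Figure D4:**
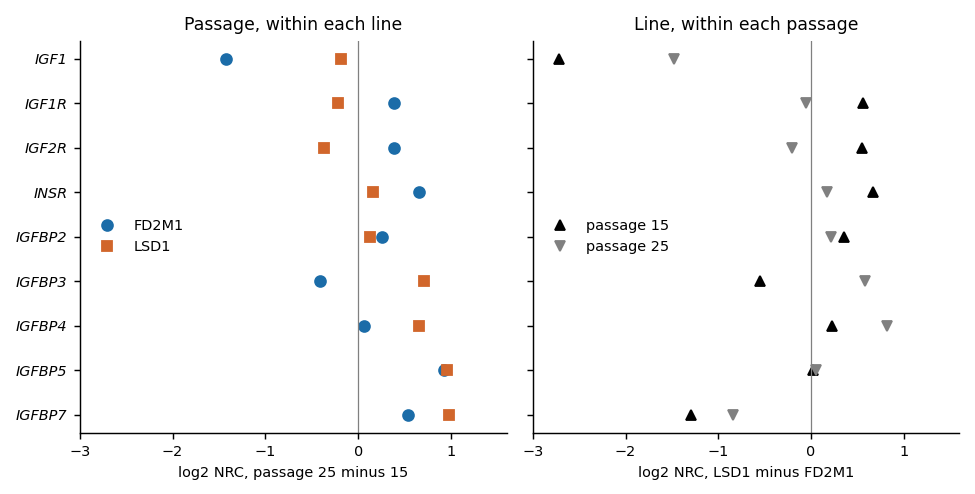
Log2 differences in NRC within the monoiPSCs for the 9 genes. The left panel gives passage 25 minus passage 15 in each line and the right panel LSD1 minus FD2M1 at each passage. IGFBP5 is higher at passage 25 by 0.93 and 0.96, and IGF1 is lower in LSD1 by 2.72 and 1.47.

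The other genes of the pathway were followed with a list of 68 genes in 7 groups. Of these, 63 had a row and 59 could be tested. The 59 genes held 10 DE genes that were higher and 18 that were lower in monoiPSCs, beside 24.3% and 21.6% of all genes tested. Their median log2 fold change was -0.34, also with INSRR at its bound, against 0.08 over all genes. A further 13 of the 59 passed the p threshold with a change under 2-fold, beside 16.3% of all genes tested.

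The proteases that cut the binding proteins and the inhibitors of these proteases were all lower. The 6 genes, PAPPA, PAPPA2, HTRA1, ADAM12, STC1 and STC2, were DE and lower in monoiPSCs, as were 21.6% of all genes tested. The summed fibroblast markers were lower in the same libraries, at 11252 to 14064 against 1607400 and 1762300, and their part in this was not tested. PAPPA, which cuts IGFBP4, was at an NRC of 15397 (FD2M1) and 12975 (LSD1) in neoSFs and 75.2 to 127 in monoiPSCs. It fell by 7.02 on the log2 scale (SE 0.24, adjusted p = 7.81e-06). IGFBP4 and its protease were thus both lower. HTRA1, a serine protease that cuts IGFBP5, fell by 5.49 (SE 0.82, adjusted p = 0.000977) and was at 15.5 to 138 in monoiPSCs. STC2, a stanniocalcin that inhibits PAPPA, fell by 1.76 (SE 0.35, adjusted p = 0.00370). PAPPA2 fell by 2.81 (SE 0.68, adjusted p = 0.00907), but the neoSF libraries differed widely. Its NRC was 597 in FD2M1 and 87.1 in LSD1 neoSFs, against 29.6 to 71.6 in monoiPSCs. ADAM12, a metalloprotease that cuts IGFBP3 and IGFBP5, fell by 1.70 (SE 0.61, adjusted p = 0.0421) and lost the call in 5 of 11 alternatives. These were fits without either neoSF library (adjusted p = 0.156 without FD2M1 and 0.0706 without LSD1), without either passage 15 library (0.0805 for FD2M1 and 0.101 for LSD1) and without the FD2M1 library of passage 25 (0.0810).

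Of the other ligands, receptors and binding proteins, 4 of 6 listed genes had a row and 2 were tested. INSRR, a receptor related to INSR that binds neither insulin nor IGFs, had estimated counts of 0 and 0.5 in the neoSF libraries, which round to 0, and an NRC of 51.1 ± 26.8 (SD, n = 4) in monoiPSCs. Against a floor of 3 counts in the shallower neoSF library it was at least 9.37-fold higher. edgeR called INSRR (adjusted p = 0.00293), but that is not a test of this bound. INSRR passed the filter on low values only through the monoiPSCs, which selects for a difference in this direction. IGFALS, which binds IGFs together with IGFBP3 in blood, was lower, at an NRC of 132 ± 61.0 (SD, n = 2) in neoSFs against 27.3 ± 11.7 (SD, n = 4) in monoiPSCs (log2 fold change -2.17, SE 0.48, adjusted p = 0.00586), and without the LSD1 neoSFs it was not called (adjusted p = 0.0600). IGFBP1 and IGFBPL1 were under the filter on low values, with at most 30 and 4 counts in a library.

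The docking proteins of the receptors moved in both directions. Of 11 receptor substrates and adaptors tested, 3 rose and 2 fell. IRS2, a docking protein of IGF1R and INSR, rose by 1.57 on the log2 scale (SE 0.15, adjusted p = 0.000135), from an NRC of 1015 ± 80.5 (SD, n = 2) to 2825 ± 195 (SD, n = 4). Its relative IRS4 had 2 counts in the neoSF libraries together and 605 in the monoiPSCs, a ratio of 51.2 with a 95% counting interval of 14.1 to 423. SHC1 and SOS1, which lead to RAS, fell by 1.44 (SE 0.16, adjusted p = 0.000267) and 1.15 (SE 0.30, adjusted p = 0.0130). SOS1 was not called without the LSD1 neoSFs (adjusted p = 0.0612).

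In the PI3K, AKT and mTOR list, 19 of 26 genes were not DE, 3 rose and 4 fell. PIK3CB, a catalytic subunit of PI3K, rose by 1.81 (SE 0.19, adjusted p = 0.000219), and the regulatory subunit PIK3R3 fell by 1.54 (SE 0.28, adjusted p = 0.00232). PHLPP2, a phosphatase of AKT, fell by 1.42 (SE 0.31, adjusted p = 0.00547). FOXO1, a transcription factor that AKT inhibits, rose by 1.17 (SE 0.31, adjusted p = 0.0132), but by 0.70 without the FD2M1 neoSFs, which is under 2-fold. All these values are log2 fold changes.

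**Figure D5:**
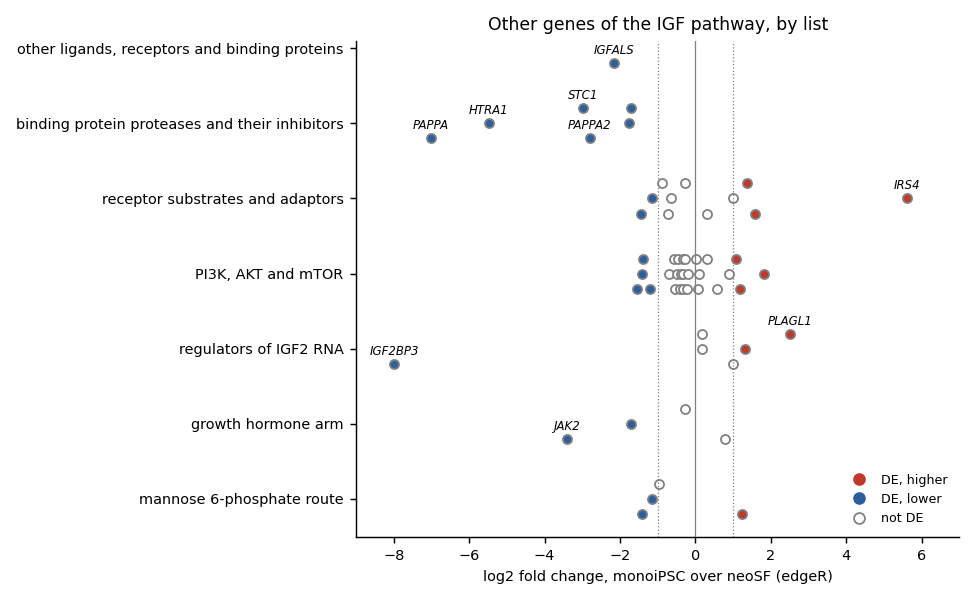
Log2 fold change, monoiPSC over neoSF, of 58 further pathway genes in 7 lists (x axis, edgeR on TMM-scaled counts). INSRR, whose neoSF counts round to 0, is left out. Filled points are DE, dotted lines mark a 2-fold change, and genes beyond 4-fold are named. All 6 points of the protease list are filled and left of -1, and most points of the PI3K, AKT and mTOR list are open.

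Of the regulators of IGF2 RNA, 6 were tested, of which 2 rose and 1 fell. IGF2BP3, an oncofetal RNA-binding protein, was at 6177 (FD2M1) and 8538 (LSD1) NRC in neoSFs and 19.7 to 33.3 in monoiPSCs. It fell by 7.99 on the log2 scale (SE 0.27, adjusted p = 7.81e-06). Its paralog IGF2BP1 rose by 1.31 (SE 0.48, adjusted p = 0.0448), with an NRC of 730 and 602 in neoSFs, 2478 and 1780 in the FD2M1 line and 1208.5 and 699.5 in the LSD1 line. The LSD1 library of passage 25 lay inside the neoSF range, and IGF2BP1 was DE in 4 of 11 alternatives, with an adjusted p of up to 0.170. PLAGL1, a zinc finger factor that is imprinted in eutherians, rose by 2.51 (SE 0.44, adjusted p = 0.00213).

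The growth hormone arm, through which growth hormone raises IGF1, held 2 genes that fell among 4 tested. JAK2, the kinase of the growth hormone receptor, fell by 3.41 on the log2 scale (SE 0.16, adjusted p = 1.27e-05), from 3133 and 4339 in neoSFs to between 318 and 339 in monoiPSCs. The receptor GHR fell by 1.72 (SE 0.59, adjusted p = 0.0368), but FD2M1 neoSFs had an NRC of 662 and LSD1 neoSFs 2728, and without the latter the log2 fold change was -0.35 (adjusted p = 0.632). Without any 1 of the 4 monoiPSC libraries its adjusted p was 0.0513 to 0.0721. SOCS2, an inhibitor of growth hormone signalling, had a log2 fold change of 0.79 (SE 0.59, adjusted p = 0.274), which was 2.19 (adjusted p = 0.0170) without the LSD1 neoSFs.

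The mannose 6-phosphate route uses IGF2R for the delivery of lysosomal enzymes. The second receptor of this route, M6PR, fell by 1.41 on the log2 scale (SE 0.18, adjusted p = 0.000490), and GNPTAB, a subunit of the enzyme that adds the tag, fell by 1.15 (SE 0.15, adjusted p = 0.000590). NAGPA, which uncovers the tag, rose by 1.25 (SE 0.34, adjusted p = 0.0146), and was not called without the FD2M1 neoSFs (adjusted p = 0.0776). GNPTG, another subunit of that enzyme, had a log2 fold change of -0.96 (SE 0.25, adjusted p = 0.0117), under 2-fold.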

How the data were processed

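Per the file headers and the study's methods, the authors aligned reads to MonDom5 with StrandNGS, filtered them, and deposited estimated counts per gene and log2 values after DESeq normalization. Of the counts above 0, 85.3% were not whole (tolerance 0.001), so all were rounded for testing. The NRC is 2 to the power of the deposited log2 value, with values below 1 set to 0. Library totals were 14278794 to 35564261.

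The filter kept a gene when each library of 1 cell type, neoSF or monoiPSC, had an NRC of 20 or more. INSRR and IRS4 passed only through the monoiPSCs, and IGF2BP3, HTRA1 and IGFALS only through the neoSFs. Each was higher in the group that let it pass, so the filter itself selects for that direction. Kept genes were tested with edgeR 4.0.16 (glmQLFTest, TMM scaling) in R 4.3.3. Passage and line were tested within the monoiPSCs with the other factor as a covariate. Alternatives were DESeq2 1.42.0, limma 3.58.1 on the deposited values, RLE scaling, no filter, strain as a block and leaving out each library. Strain pairs the libraries, since each line came from the neoSFs of its own strain. On simulated counts with 200 genes changed 4-fold, edgeR recovered 162 for cell type (7 false calls) and 59 for the interaction (10 false) of 13072 genes tested, and 191 for passage (11 false) and 196 for line (15 false) of 12252. DESeq2 recovered 180 (54 false), 111 (40 false), 182 (11 false) and 191 (12 false) in that order. The simulation used the dispersions estimated from the data and far fewer changed genes than the 45.9% called for cell type. Its rates describe the simulated counts and give no measure of missed or false calls in the data.

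The members and lists were chosen with earlier results of these data known. The text names all members and, of each wider list, its DE genes, filled up to 3 by size of change where fewer were DE. Of a list with more than 4 DE genes it names the 2 highest and 2 lowest. PAPPA2, STC1, IGFBP1, IGFBPL1, GNPTG, FOXA2, GATA4, SOX17 and DCT, and the shares of binding protein counts, were added after their values were seen. The same holds for MITF, MYOG, ACTC1, DES, MYF5, PDGFRB, TUBB3, NEUROG2, DCX, SOX1 and PAX6. It also holds for VIM, COL1A1, COL3A1, DCN, LUM, THY1, PDGFRA, GATA6, AFP and TTR. Of the genes without their symbol in the files, 3 of the pathway and 2 markers were matched by gene number through the RefSeq table of mMonDom1.pri. The 95% intervals of log2 fold changes come from the edgeR fits and include the spread between libraries. The interval of IRS4 and the floor of INSRR cover counting error only.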

Additional observations from a re-analysis of the deposited data

Results flagged for a closer look

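IGF1R was singled out because its change from neoSF to monoiPSC ran in opposite directions in the 2 strains. It was lower than in the neoSFs of its own strain in both FD2M1 libraries and higher in both LSD1 libraries. The log2 difference between the changes was 1.23 (SE 0.35, edgeR unadjusted p = 0.0128, adjusted p = 0.359), so the test over all genes did not call it. The neoSF side of the difference rests on 1 library per strain, and the LSD1 neoSFs had 2.00-fold less IGF1R than the FD2M1 neoSFs. None of the 9 genes had a monoiPSC library standing apart by Dixon's criterion for 4 samples.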

How the results depend on the processing

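For monoiPSC against neoSF, the calls of IGFBP4 and IGFBP7 held under all 11 alternatives. RLE scaling left 0 members higher. With 1 library left out, 0 to 1 members were higher (1 only without the FD2M1 neoSFs) and 2 to 4 lower. The log2 fold change of IGF1 was -0.42 by limma and -0.37 with strain as a replicate block, and -0.75 to 0.45 with a library left out. That of IGF1R was -0.03 under RLE scaling and by DESeq2, -0.0028 by limma, and -0.39 to 0.60 with a library left out. The strain block changed no call. DESeq2 called 1 member between the lines, as did the fit without the FD2M1 library of passage 25 (0 to 1 over the fits without 1 library), and 2 for the interaction. Fits within the monoiPSCs without 1 library had no covariate, so passage and line are unbalanced in them and their signs carry both. For passage they spanned -2.12 to 0.72 for IGF1, -0.21 to 0.37 for IGF1R, -0.27 to 0.29 for IGF2R (0.08 without the LSD1 library of passage 25), -0.17 to 0.44 for IGFBP3 (-0.09 without the LSD1 library of passage 15), -0.07 to 0.74 for IGFBP4 and 0.17 to 1.44 for IGFBP7. For line they spanned -0.02 to 0.38 for IGF2R (-0.0016 without the FD2M1 library of passage 15), -0.33 to 0.37 for IGFBP3 (-0.14 without the FD2M1 library of passage 25) and -0.49 to 0.58 for IGFBP5 (-0.34 without the FD2M1 library of passage 15). The interaction spanned -0.37 to 0.03 for IGF2R, -0.05 to 0.59 for INSR and -2.80 to -1.35 for IGF1. The log2 difference of the ratios spanned -0.91 to 0.23 for IGF1R over INSR, -0.95 to 0.37 for IGFBP5 over IGFBP2 and -3.14 to -1.41 for IGFBP2 over IGFBP3. The cause of these shifts was not tested. With 1 neoSF library left out, the lone neoSF library is assumed to vary like the monoiPSCs.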
